A study of Mus musculus with 6 samples.

Results

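The genes described here are 8 markers of fetal-like and wound-associated intestinal epithelium: *Ly6a*, *Ly6d*, *Msln*, *Clu*, *Il1rn*, *Sprr1a*, *Ccn1* and *Ccn2*. They were taken by symbol from the 56884 genes counted, leaving aside annexins, S100 genes and EGFR ligands. All 8 had an identifier in the count tables and were abundant enough to test.

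The libraries came from mouse small intestinal organoids, epithelial cultures grown from crypts, in which Lgr5-GFP+ cells were sorted before RNA was extracted. Every organoid carried Villin-CreERT2, Lgr5-EGFP-IRES-CreERT2 and Ythdf2fl/fl, so the control libraries share the floxed alleles and both Cre drivers. The villin promoter is active throughout the intestinal epithelium, and *Lgr5* marks its stem cells. One set of cultures received 0.5 µM 4-hydroxytamoxifen (4-OHT), which activates CreERT2, and the other received the solvent ethanol (EtOH). Cells were sorted at day 6 (2 libraries for each label) or day 4 (1 library for each label). The labels do not say whether the day 6 replicates came from separate cultures or mice, so their spread may be technical.

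When intestinal epithelium is injured, part of it leaves the adult stem cell program and turns on genes otherwise seen in the fetal gut. Ly6a (also called Sca-1) and clusterin mark such cells in the mouse. The state is associated with YAP, a co-activator held in check by the Hippo kinases, which acts through TEAD transcription factors and has *Ccn1* and *Ccn2* among its best-known targets.

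The libraries held 14345379 to 21461835 gene counts. Levels are given as CPM, the count of a gene relative to the size of its library after scaling with TMM factors. *Ythdf2*, the floxed gene, stood at 82.8 and 76.0 CPM in the day 6 EtOH libraries and at 208 and 204 CPM in the day 6 libraries labelled 4-OHT. The day 4 pair stood at 76.0 CPM (EtOH) and 167 CPM (4-OHT). The targeted transcript was thus higher, not lower, in the libraries labelled 4-OHT (day 6 log2 fold change 1.37, SE 0.16). Counts per gene cannot show whether the floxed exons were present, so every direction below is that of libraries labelled 4-OHT. The day 4 libraries had counts for 24195 (4-OHT) and 26521 (EtOH) genes, against 19522 to 20622 at day 6, and 6.19% to 6.70% of their entries fell in no gene, against 2.63% to 3.76%.

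At day 6, 6 of the 8 members tested rose in the libraries labelled 4-OHT: *Ly6a*, *Ly6d*, *Msln*, *Il1rn*, *Sprr1a* and *Clu*. None fell, and *Ccn1* and *Ccn2* did not pass the test. A rise here means an adjusted p under 0.05 in edgeR's quasi-likelihood test with Benjamini-Hochberg adjustment over all 14066 genes tested. By this rule 2.5% of all genes passed, with 2.25% higher and 0.242% lower. The median log2 fold change of the 8 members was 2.10, and that of all genes was −0.01. Fewer cells of a type and less RNA per cell cannot be told apart in such bulk libraries, and the same holds for more.

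**Figure D1:**
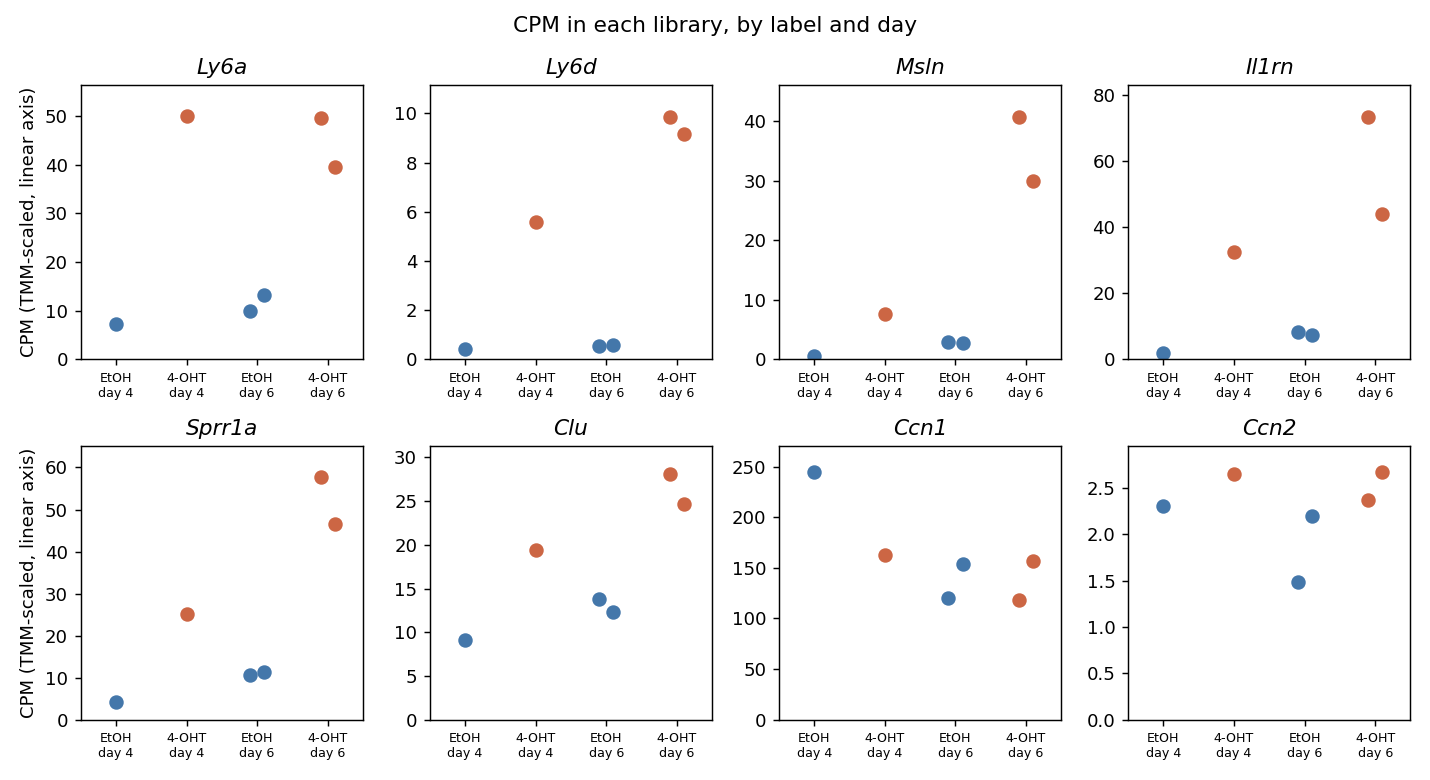
Each panel shows 1 gene, with CPM on a linear axis from 0 and 1 point for each library (blue EtOH, orange 4-OHT). For *Ly6a*, *Ly6d*, *Msln*, *Il1rn*, *Sprr1a* and *Clu* the orange points lie above the blue points of the same day, whereas for *Ccn1* the colours overlap at day 6.

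*Ly6a*, *Ly6d* and *Msln* encode surface proteins held by a lipid anchor. *Ly6a* (ENSMUSG00000075602; chromosome 15, 74863840 to 74869880, minus strand, GRCm39) had 185 and 226 counts with EtOH and 1069 and 739 with 4-OHT at day 6. In CPM these were 9.80 and 13.1 against 49.7 and 39.6, with no overlap between the labels. The rise was 3.89-fold (log2 1.96, SE 0.22, edgeR adjusted p 0.000787). At day 4 *Ly6a* stood at 50.2 CPM with 4-OHT, level with the higher day 6 library of that label, against 7.13 CPM with EtOH. Of its exon bases 4.8% are shared with *Gm28068*.

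*Ly6d* (ENSMUSG00000034634; chromosome 15, 74633902 to 74635597, minus strand, GRCm39) encodes a small relative of Ly6a known from keratinocytes and lymphoid precursors. It was close to silent with EtOH, at 10 and 10 counts in the day 6 libraries and 8 at day 4. With 4-OHT it had 212 and 171 counts at day 6 and 82 at day 4. Its day 6 change was the largest of the members tested, from 0.530 and 0.580 CPM to 9.86 and 9.16 CPM. This is a log2 difference of 4.08 (SE 0.39, edgeR adjusted p 0.000241).

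*Ly6a* and *Ly6d* lie in a cluster of related genes on chromosome 15, so the other genes of the Ly6 and uPAR family were examined as well. Of 36 family genes, 15 were abundant enough to test, and 8 rose while none fell. Among the 19 family genes on chromosome 15 (between 74586682 and 75471331, GRCm39), 11 were tested and 7 rose, with a median log2 fold change of 2.83. The members *Ly6a* and *Ly6d* are among the 7, and 2.25% of all genes rose. *Ly6g*, *Ly6m*, *Gml* and *Psca*, also among them, passed the abundance filter only through their 4-OHT libraries. A fall of such genes could not have been seen, which lifts these counts and the median. On other chromosomes 4 were tested and 1 rose, *Plaur*, the urokinase receptor (1.39, SE 0.22), which lies on chromosome 7. The count tables list multi-mapping reads apart from the genes, so values of near-identical family members are uncertain.

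The other large rises of the family also came from near-silent genes. *Ly6g*, known as a surface marker of neutrophils, had 2 and 5 counts with EtOH and 131 and 40 with 4-OHT at day 6 (log2 4.36, SE 0.72, edgeR adjusted p 0.00823). At day 4 it had 0 counts with EtOH and 21 with 4-OHT. *Ptprc*, the common leukocyte antigen, picked after its values were seen, had 0 counts in each day 6 library and 2 and 1 at day 4. Other genes of the leukocyte list had counts. That list summed to 5.08 and 7.25 CPM with EtOH and 6.61 and 10.1 CPM with 4-OHT at day 6. *Ly6m* went from 10 and 8 counts to 152 and 172 (log2 4.01, SE 0.43). *Gml* went from 5 and 6 counts to 76 and 32 (log2 3.08, SE 0.64), and *Psca*, prostate stem cell antigen, from 9 and 39 to 247 and 147 (log2 2.83, SE 0.59). *Gml* had 5 and 7 counts at day 4, so its libraries of that day stood near each other.

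The most abundant family members moved little. *Lypd8*, which encodes a secreted protein that keeps flagellated bacteria from the colonic epithelium, had 507 ± 29.3 CPM with EtOH and 489 ± 133 CPM with 4-OHT (SD, n = 2 each). *Ly6e* had 233 ± 12.1 and 257 ± 12.5 CPM (SD, n = 2 each). Neither passed the test, with log2 fold changes of −0.05 (SE 0.20) and 0.14 (SE 0.16).

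**Figure D2:**
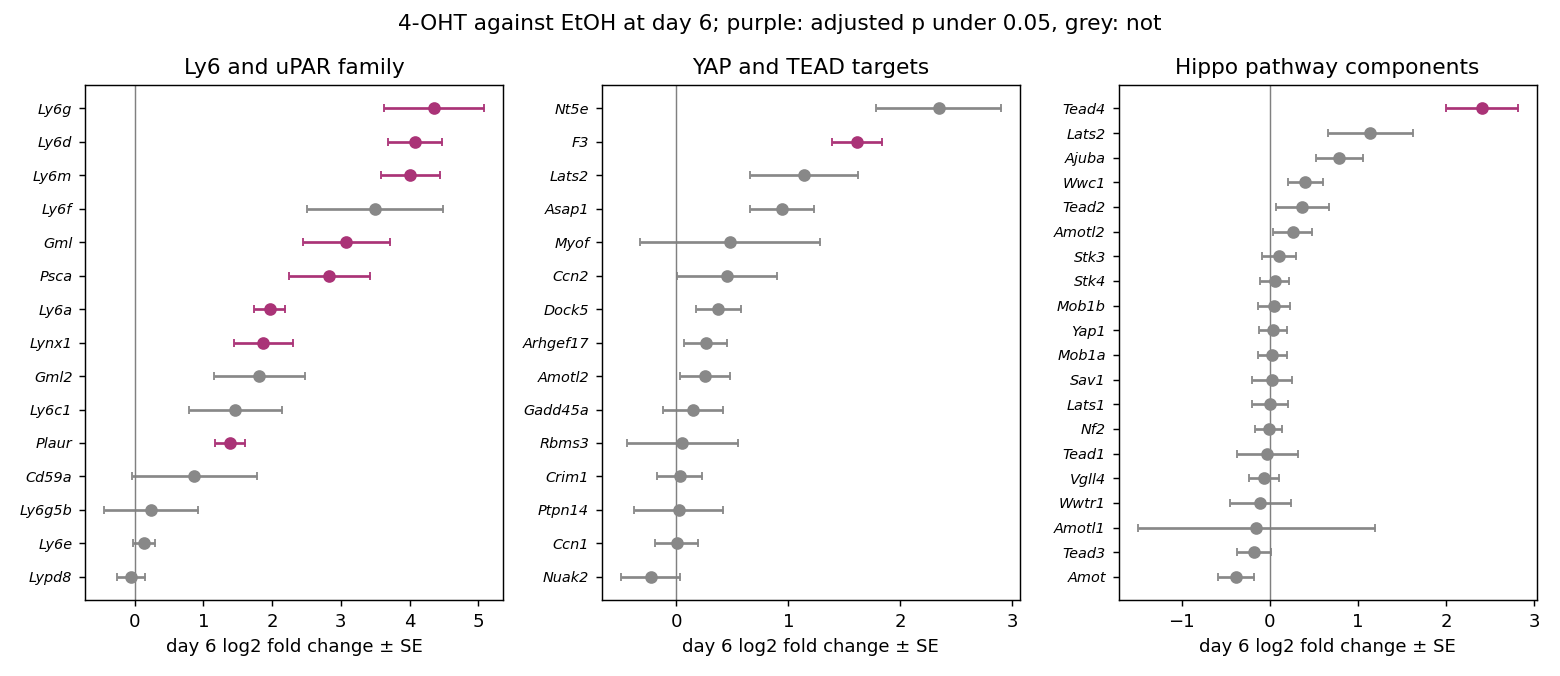
Day 6 log2 fold changes with standard errors, for the tested genes of the Ly6 and uPAR family, of the YAP and TEAD target list and of the Hippo pathway list. Purple points passed an adjusted p of 0.05, as 8 of 15, 1 of 15 and 1 of 20 genes did, and grey points did not. Of all genes 2.5% passed.

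*Msln* (ENSMUSG00000063011; chromosome 17, 25967312 to 25985619, minus strand, GRCm39) encodes mesothelin, a surface glycoprotein of the lining of the body cavities that binds the mucin Muc16. Day 6 counts were 53 and 46 with EtOH and 875 and 558 with 4-OHT, or 2.81 and 2.67 against 40.7 and 29.9 CPM. The lower 4-OHT library was more than 10 times the higher EtOH library. The log2 fold change was 3.68 (SE 0.26, edgeR adjusted p 3.75e-05). The day 4 pair had 9 (EtOH) and 111 (4-OHT) counts, or 0.461 and 7.53 CPM. Of its relatives and its ligand, *Mslnl*, *Otoa*, *Strc* and *Muc16* had at most 6 counts in any library. Of 6 other markers of mesothelium 2 were tested and neither passed. The list summed to 40.0 and 31.8 CPM with EtOH and 35.9 and 63.4 CPM with 4-OHT at day 6, and to 37.5 and 48.9 CPM at day 4. Most of this was *Upk3b* (39.3 and 30.7 against 34.1 and 62.4 CPM), while *Wt1*, *Muc16* and *Gpm6a* had 0 counts at day 6.

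*Il1rn* and *Clu* encode secreted proteins. *Il1rn* (ENSMUSG00000026981; chromosome 2, 24226865 to 24241506, plus strand, GRCm39) encodes the antagonist that occupies the interleukin-1 receptor without signalling. Its counts were 154 and 125 with EtOH and 1579 and 820 with 4-OHT at day 6, or 8.16 and 7.25 against 73.5 and 43.9 CPM. The 4-OHT replicates lay well apart, and both were far above EtOH. At day 4 the values were 1.90 CPM with EtOH and 32.4 CPM with 4-OHT. The rise was 7.60-fold (log2 2.93, SE 0.27, edgeR adjusted p 0.000201). To leave out a day 6 library, the other libraries of both days were fitted in 4 groups, so the spread came from 1 replicate pair. Without EtOH replicate 1 in such a fit *Il1rn* fell just short of the threshold, with a log2 fold change of 3.02.

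Of 19 genes of the interleukin-1 system 8 were tested, and *Il1rn* was the 1 that passed at day 6. The antagonised ligands were scarce: *Il1a* had 3 to 12 counts in every library and *Il1b* at most 2. The receptor *Il1r1* had at most 10 counts, and *Il1rap*, the accessory chain, was at 8.98 and 10.5 CPM on average with EtOH and 4-OHT. *Il33*, an alarmin of the same family, had 2 and 6 counts with EtOH and 27 and 38 with 4-OHT at day 6, and 0 and 13 at day 4. Its log2 fold change of 2.84 (SE 0.74) missed the threshold at day 6 (edgeR adjusted p 0.0823) and passed it over both days (0.0306).

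*Clu* (ENSMUSG00000022037; chromosome 14, 66190200 to 66218999, plus strand, GRCm39) encodes clusterin, a chaperone outside the cell. Its counts were 260 and 212 with EtOH and 603 and 461 with 4-OHT, or 13.8 and 12.3 against 28.1 and 24.7 CPM. At day 4 the pair stood at 9.07 CPM (EtOH) and 19.4 CPM (4-OHT). The labels did not overlap, and the change was the smallest of the 6 rises, 2.02-fold (log2 1.01, SE 0.21, edgeR adjusted p 0.0282). This call was lost when any 1 day 6 library was left out in the same kind of 4-group fit, with log2 fold changes of 0.92 to 1.10. Of 5 clusterin partners and secreted chaperones tested, *Clu* was the 1 that passed. *Lrp8* and *Vldlr*, receptors for clusterin, were at 52.5 and 48.3 CPM and at 94.4 and 94.2 CPM on average with EtOH and 4-OHT.

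*Sprr1a* (ENSMUSG00000050359; chromosome 3, 92390424 to 92393208, minus strand, GRCm39) encodes a small proline-rich protein that is cross-linked into the cornified envelope of skin and appears in injured tissue elsewhere. It had 203 and 197 counts with EtOH and 1240 and 868 with 4-OHT at day 6, or 10.8 and 11.4 against 57.7 and 46.5 CPM. The day 4 pair stood at 4.31 CPM (EtOH) and 25.1 CPM (4-OHT). The day 6 EtOH replicates were nearly equal, and both 4-OHT libraries were at least 4 times as high. The log2 fold change was 2.23 (SE 0.21, edgeR adjusted p 0.000201).

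Of the 23 cornified envelope genes matched, 7 were tested, with a median log2 fold change of 0.70. None fell and 3 rose: *Sprr1a*, *Ppl* (periplakin, log2 0.99, SE 0.23) and *Sprr2a3* (log2 0.74, SE 0.16). *Sprr2a3* was the most abundant *Sprr* gene, with 104 ± 1.72 and 175 ± 14.4 CPM (SD, n = 2 each), and its near-identical copies make its count uncertain. *Sprr1b* and *Sprr3* had 0 counts in all 6 libraries. The list, *Sprr1a* included, summed to 278 and 293 CPM with EtOH and 455 and 438 CPM with 4-OHT at day 6, and to 265 and 380 CPM at day 4. Markers of squamous epithelium summed to 1.27 and 0.638 CPM with EtOH and 4.61 and 3.70 CPM with 4-OHT at day 6. Of the 7 markers 2 were tested, and 1 rose at day 6 but 0 in the fit over both days. The part of these markers in the rise of *Sprr1a* was not tested. The keratin genes of squamous epithelium, *Krt5* and *Krt14*, had 0 counts with EtOH and at most 4 with 4-OHT. *Dsg3*, a desmosomal cadherin of that tissue picked out after its values were seen, had 0 and 0 counts with EtOH and 35 and 39 with 4-OHT at day 6, but 18 (EtOH) and 9 (4-OHT) at day 4. At day 6 *Dsg3* passed the abundance filter only through its 4-OHT libraries, so a fall could not have been seen.

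Promoter sequences were in the RefSeq table (GRCm38.p6) for 3 members, *Sprr1a*, *Il1rn* and *Ccn1*, and not for *Ly6a*, *Ly6d*, *Msln*, *Clu* and *Ccn2*. The 250 bases before the start site were searched on both strands for GGAATG (TEAD), TGANTCA (AP-1, the Fos and Jun dimer) and the interferon-stimulated response element. The windows with a match are shown for these 3 members, the only ones with an entry, and capitals mark each match. No match overlapped another. Their coordinates are chr3:92485882-92486131 (*Sprr1a*, minus strand), chr2:24336610-24336859 and chr2:24345121-24345370 (*Il1rn*, start sites 1 and 3, plus strand) and chr3:145649986-145650235 (*Ccn1*, minus strand).
Sprr1a: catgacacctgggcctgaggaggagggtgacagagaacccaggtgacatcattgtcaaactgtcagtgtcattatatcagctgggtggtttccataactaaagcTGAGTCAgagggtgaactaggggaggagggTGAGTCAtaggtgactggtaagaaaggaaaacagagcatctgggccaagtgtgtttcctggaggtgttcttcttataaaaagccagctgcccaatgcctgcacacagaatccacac
Il1rn, start site 1: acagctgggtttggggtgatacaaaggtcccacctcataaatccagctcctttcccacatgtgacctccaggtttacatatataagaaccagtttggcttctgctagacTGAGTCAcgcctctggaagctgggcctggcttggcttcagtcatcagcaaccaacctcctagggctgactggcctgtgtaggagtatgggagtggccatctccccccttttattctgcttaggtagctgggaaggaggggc
Il1rn, start site 3: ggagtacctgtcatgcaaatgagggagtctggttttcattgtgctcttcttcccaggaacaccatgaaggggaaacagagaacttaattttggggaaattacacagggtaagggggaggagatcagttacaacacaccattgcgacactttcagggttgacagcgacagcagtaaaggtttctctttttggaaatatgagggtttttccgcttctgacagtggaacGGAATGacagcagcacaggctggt
Ccn1: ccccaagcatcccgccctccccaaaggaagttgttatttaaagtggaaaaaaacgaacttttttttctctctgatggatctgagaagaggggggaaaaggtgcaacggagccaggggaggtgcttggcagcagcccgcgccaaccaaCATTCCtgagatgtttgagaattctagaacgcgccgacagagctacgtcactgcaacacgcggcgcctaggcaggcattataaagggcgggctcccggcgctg

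The *Sprr1a* window held 2 AP-1 matches, starting 146 and 116 bases before the start site, and *Il1rn* held 1 at start site 1, 141 bases before it. The *Ccn1* window held 1 TEAD match on the opposite strand, 103 bases before the start site, and start site 3 of *Il1rn* held 1 at 24 bases. The window of start site 2, which overlaps that of site 3, had no match, and none of the windows held the interferon element. Among 32851 RefSeq promoter windows of this length, 6.75% held the AP-1 letters, 12.6% the TEAD letters and 2.98% the interferon element. A match describes the sequence alone, and the counts do not show which start site of *Il1rn* was used.

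*Ccn1* and *Ccn2* encode matricellular proteins, which are secreted into the matrix and bind integrins. *Ccn1* (ENSMUSG00000028195; chromosome 3, 145352720 to 145355738, minus strand, GRCm39) was the most abundant member. At day 6 it had 121 and 154 CPM with EtOH and 118 and 157 CPM with 4-OHT, so that the labels overlapped. The log2 fold change was 0.00 (SE 0.19), with a 95% interval of −0.42 to 0.42. At day 4 it was lower with 4-OHT, at 163 CPM against 244 CPM.

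*Ccn2* (ENSMUSG00000019997; chromosome 10, 24471333 to 24474900, plus strand, GRCm39) had only 28 and 38 counts with EtOH and 51 and 50 with 4-OHT at day 6. Its log2 fold change of 0.45 (SE 0.45) had a 95% interval of −0.53 to 1.44, which still includes a doubling. The 2 genes share exon bases with the non-coding genes *Gm17501* (23.0% of *Ccn1*) and *Gm15270* (36.5% of *Ccn2*), and reads there may be lost as ambiguous. The rest of the CCN family, *Ccn3* to *Ccn6*, had at most 12 counts in any library.

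The wider YAP and TEAD target list holds 22 genes, *Ccn1* and *Ccn2* among them. Of these 15 were tested and 1 rose, against 2.25% of all genes, a count too small to set the list apart. This gene was *F3*, which encodes tissue factor. *F3* stood at 17.5 and 24.9 CPM with EtOH and at 57.7 and 72.1 CPM with 4-OHT (log2 1.61, SE 0.22). The median of the tested targets was 0.26. *Ankrd1*, another standard target, had at most 2 counts in any library.

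Of the 20 Hippo pathway components all were tested and 1 rose, where 2.25% of all genes did. It was *Tead4*, a DNA-binding partner of YAP. It went from 19 and 36 counts with EtOH to 166 and 161 with 4-OHT at day 6 (log2 2.40, SE 0.41, edgeR adjusted p 0.00869), and from 30 to 92 counts at day 4. *Yap1* itself stood at 135 ± 10.9 and 139 ± 7.08 CPM (SD, n = 2 each), and *Tead1* at 68.2 and 67.0 CPM on average. Transcript counts do not show the state of the pathway's proteins.

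Longer transcripts give more reads, so levels of different genes were compared as TPM, in which counts are divided by exon length before scaling to a common total. This length joins the exons of all annotated transcripts of a gene (1647 bases for *Sprr1a*, 4646 for *Ly6a*, 5632 for *Clu*). It can exceed that of the transcript present, and the order depends on it. In CPM the day 6 EtOH means were 13.0 for *Clu*, 11.4 for *Ly6a* and 11.1 for *Sprr1a*. In the day 6 EtOH libraries *Ccn1* came first with 234 and 326 TPM, followed by *Sprr1a* with 25.8 and 29.9 TPM. *Ly6a* (8.32 and 12.1) and *Clu* (9.65 and 9.39) overlapped and could not be ordered. *Il1rn* came next with 5.82 and 5.64 TPM. *Ly6d* (2.39 and 2.85), *Msln* (2.46 and 2.55) and *Ccn2* (1.84 and 2.98) overlapped.

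With 4-OHT the order changed, although *Ccn1* (236 and 313 TPM) and *Sprr1a* (142 and 114 TPM) still led. *Ly6d* reached 45.8 and 42.4 TPM and overlapped *Il1rn* at 53.9 and 32.1 TPM. In CPM, which leaves length out, *Ly6d* stayed below *Il1rn* (9.86 and 9.16 against 73.5 and 43.9). *Ly6a* at 43.4 and 34.5 TPM and *Msln* at 36.7 and 26.9 TPM also overlapped *Il1rn*. *Clu*, level with *Ly6a* in EtOH, stood below all 4 of these genes with 20.2 and 17.8 TPM.

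**Figure D3:**
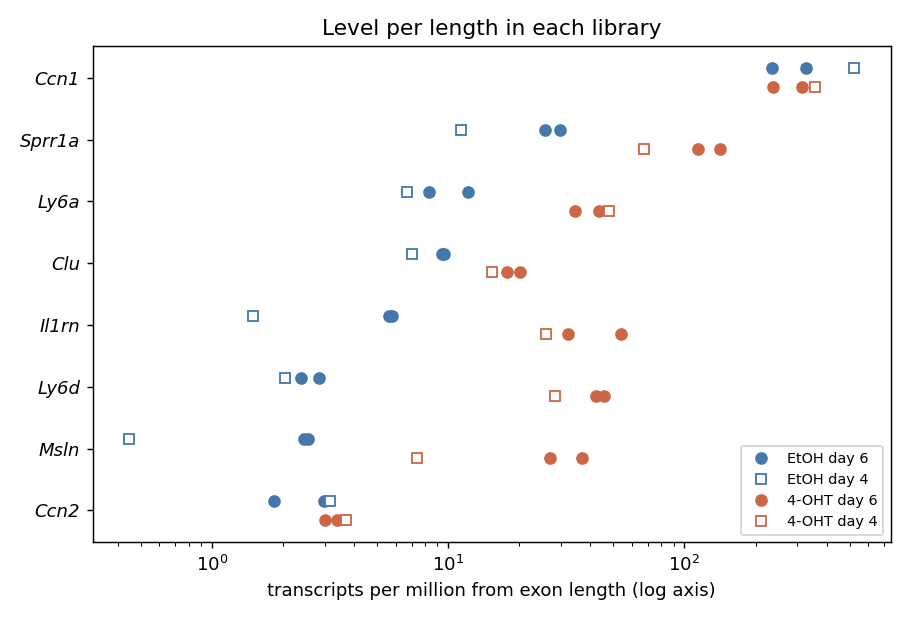
TPM on a log axis for 8 members, ordered by their day 6 EtOH level, with circles for day 6, squares for day 4, blue for EtOH and orange for 4-OHT. *Msln* and *Il1rn* show the widest gap between the EtOH libraries of day 4 (0.446 and 1.49 TPM) and day 6.

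The EtOH libraries themselves differed between the days. *Msln* had 9 counts with EtOH at day 4, or 0.461 CPM, and its mean at day 6 was 5.93 times that value. The same ratio was 4.06 for *Il1rn*, 2.57 for *Sprr1a*, 1.61 for *Ly6a*, 1.44 for *Clu* and 1.35 for *Ly6d*. *Ccn1* went the other way, with a day 6 mean of 0.562 times its day 4 level of 244 CPM. Both day 6 EtOH libraries stood above the day 4 library for 6 of the 8 members. The share of all genes with this order was not computed, so the count is not read as a trait of the members. Day 4 rests on 1 library, and its library names come from another number series than those of day 6. Day and whatever goes with that naming cannot be told apart, so the difference was not tested.

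At day 4, 6 of the 8 tested members were at least 2-fold higher in the library labelled 4-OHT, the same 6 that rose at day 6. Among 12716 genes tested at day 6 with at least 1 CPM on average at day 4, 4.46% reached this and 1.31% were lower by the same factor. With 1 library for each label there is no replicate check, and intervals cover counting error only. The ratio was 17.1 for *Il1rn* (exact 95% interval 12.2 to 24.5), 16.3 for *Msln* (8.30 to 36.6) and 13.6 for *Ly6d* (6.57 to 32.5). It was 7.04 for *Ly6a* (5.86 to 8.50), 5.83 for *Sprr1a* (4.59 to 7.48) and 2.14 for *Clu* (1.77 to 2.60). *Ccn1* had a ratio of 0.667 (0.635 to 0.701), and *Ccn2* one of 1.15 (0.728 to 1.80).

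**Figure D4:**
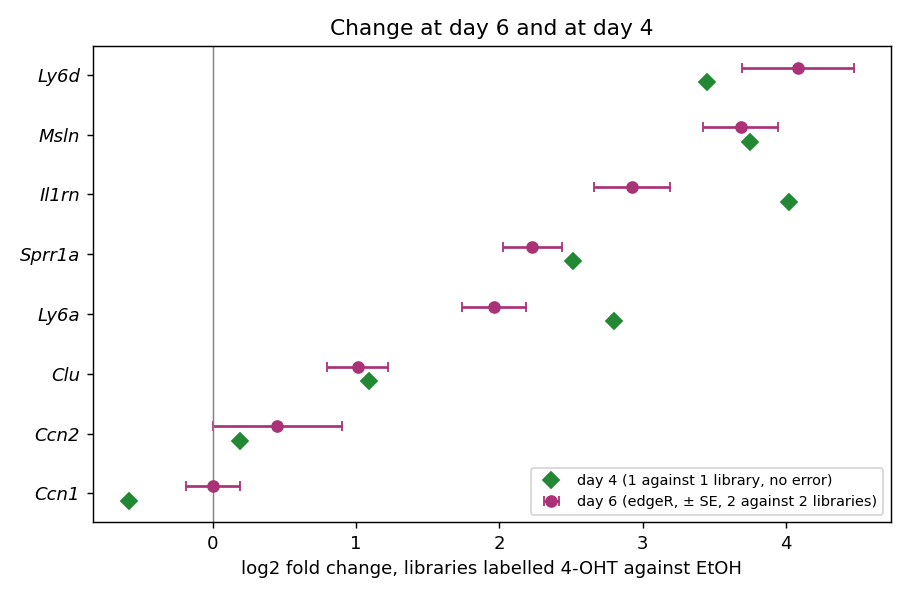
Log2 fold changes of the 8 tested members at day 6 (circles, with SE) and day 4 (diamonds, from single libraries). *Il1rn* and *Ly6a* have day 4 values of 4.02 and 2.80, to the right of their day 6 values of 2.93 and 1.96, and the other rising members lie closer to theirs. The 2 days use unlike measures: day 6 values are edgeR estimates, and day 4 values use a prior count of 2. That prior shrinks changes of genes with few counts. With a prior count of 0.5 the day 4 values of *Msln* and *Ly6d* were 3.95 and 3.68, against 3.75 and 3.45 shown.

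Whether the size of the change differed between the days was tested as an interaction of treatment and day. The spread in that fit comes from the day 6 pairs, and the lone day 4 libraries are assumed to vary like them. No member passed, and 0% of the 14060 genes did (edgeR, with 233 genes at an unadjusted p under 0.05, and 6 genes called by DESeq2). *Il1rn* had the largest difference, a change smaller by a log2 of 1.16 at day 6, written −1.16 (SE 0.48, 95% interval −2.22 to −0.10, unadjusted p 0.0351, edgeR adjusted p 1.00). *Ly6a* followed with −0.85 (SE 0.39, 95% interval −1.69 to −0.01, unadjusted p 0.0486, edgeR adjusted p 1.00). *Ccn1* came next in size with the opposite sign, at 0.59 (95% interval −0.14 to 1.32). For *Msln* the difference was −0.32 (95% interval −1.54 to 0.89), although its EtOH level differed 5.93-fold between the days. It was −0.31 for *Sprr1a* (95% interval −1.12 to 0.50) and −0.08 for *Clu* (95% interval −0.90 to 0.74). The intervals of *Ly6d* (−1.33 to 2.02) and *Ccn2* (−1.44 to 1.95) are too wide to place them.

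In the fit of all 6 libraries with day as a term, the same 6 members rose and none fell, where 3.36% of all 14060 genes rose and 0.661% fell. The log2 fold changes were 3.98 for *Ly6d* (SE 0.30), 3.75 for *Msln* (SE 0.21) and 3.24 for *Il1rn* (SE 0.28). They were 2.33 for *Sprr1a* (SE 0.16), 2.24 for *Ly6a* (SE 0.21) and 1.04 for *Clu* (SE 0.15, edgeR adjusted p 0.00317). With any 1 day 6 library left out, the log2 fold change of *Clu* in this fit was 0.99 to 1.10. Without either day 4 library it was 1.01 and 1.02. There the day term takes up the remaining day 4 library, so those values repeat the day 6 comparison and are no further check. In 7 of the 8 tested members both day 6 4-OHT libraries exceeded both EtOH libraries and the day 4 pair had the same order, as in 16.2% of genes. The exception was *Ccn1*, with −0.19 (SE 0.17).

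A wider list of fetal and wound epithelium genes gave a mixed picture. Of 28 genes 24 were tested, and 9 rose while none fell, with a median log2 fold change of 1.01. Of all genes 2.25% rose. Some list genes near-silent with EtOH, such as *Tm4sf1* and *Lama3*, were tested only through their 4-OHT libraries, which lifts the count. The largest rise was *Tm4sf1*, a tetraspanin-like surface protein, from 7 and 3 counts to 201 and 76 (log2 4.57, SE 0.60). At day 4, however, it had 2 counts with EtOH and 5 with 4-OHT. *Crip2*, a LIM domain protein, went from 14 and 14 counts to 206 and 118 at day 6 (log2 3.34, SE 0.42) and from 20 to 445 at day 4. *Lama3*, a laminin chain of the epithelial basement membrane, went from 5 and 10 counts to 94 and 45 (edgeR adjusted p 0.0203). *Cd44*, *Itga2* and *Itgb6*, surface receptors of the same list, had log2 fold changes between −0.10 and 0.08 and did not pass.

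*Ly6a* is known as an interferon-inducible gene, so a list of interferon response genes was examined. Of 18 tested 13 did not pass, none fell and 5 rose, among them *Rsad2* (log2 3.36, SE 0.53), *Ifit1* (2.66, SE 0.39), *Ifit3* (2.48, SE 0.54) and *Oasl2* (2.45, SE 0.38). The median log2 fold change of the 18 was 1.54, and 2.25% of all genes rose. The list summed to 115 and 134 CPM with EtOH and 192 and 212 CPM with 4-OHT at day 6, and to 121 and 158 CPM at day 4. The part of these genes in the level of *Ly6a* was not tested.

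Markers of enterocytes, the absorptive cells, were as a list also higher with 4-OHT. Of 12 tested 9 rose, where 2.25% of all genes did. Their median log2 fold change at day 6 was 2.02, close to the 2.10 of the members. At day 4 the medians lay apart, at 1.40 for these markers and 2.66 for the members. The list summed to 1714 and 1889 CPM with EtOH and 5004 and 4000 CPM with 4-OHT at day 6. At day 4 the sums were 1382 CPM (EtOH) and 1859 CPM (4-OHT). Of 8 stem cell markers 1 fell, *Olfm4*, named after its value was seen (log2 −1.27, SE 0.23), and the sums were 6096 and 5694 against 3940 and 3657 CPM at day 6 and 5031 against 4239 CPM at day 4. Their part in the rises of the members was not tested.

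Markers of cells outside the epithelium were scarce. At day 6 the leukocyte list summed to 5.08 and 7.25 CPM with EtOH and 6.61 and 10.1 CPM with 4-OHT. The fibroblast list was higher with 4-OHT, at 2.86 and 1.57 against 3.72 and 4.23 CPM. The endothelial list was lower with 4-OHT, at 7.36 and 8.75 against 5.40 and 6.91 CPM. At day 4 the sums with EtOH and 4-OHT were 8.92 and 8.89 CPM (leukocyte), 2.31 and 3.33 CPM (fibroblast) and 7.33 and 8.89 CPM (endothelial). None of their tested genes passed at day 6 (1 fibroblast, 1 endothelial and 2 leukocyte genes tested). *Cdh5*, *Kdr* and *Cldn5*, which define endothelium, another site of *Ly6a*, had 0 counts in each day 6 library, as did *Lum*, *Thy1* and *Dcn* of fibroblasts. These genes were picked after their values were seen, and other genes of both lists had counts. The gastric list summed to 21.9 and 11.7 CPM with EtOH and 22.7 and 22.8 CPM with 4-OHT at day 6, and to 10.05 and 11.7 CPM at day 4. Of its 2 tested genes, both named after their values were seen, *Tff2*, a trefoil peptide, rose (5 and 21 counts with EtOH, 182 and 268 with 4-OHT). *Tff2* passed the abundance filter only through its 4-OHT libraries, so a fall could not have been seen. *Gkn3*, a gastrokine, had 409 and 159 counts with EtOH and 306 and 128 with 4-OHT and did not pass (log2 −0.55, SE 0.47).

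The genes whose pattern over the 6 libraries lay closest to the mean of the 8 tested members were *Acaa1b*, a peroxisomal thiolase, *Hsd17b2*, a steroid dehydrogenase, and *Lipa*, the lysosomal acid lipase. Closeness is the root-mean-square distance of centred log2 levels among 10428 genes of at least 5 CPM, and it was 0.106, 0.162 and 0.166. *Acaa1b* had 3.23 and 4.35 CPM with EtOH and 16.0 and 13.9 CPM with 4-OHT at day 6, and 2.51 and 11.3 CPM at day 4. The nearest to *Ly6a* was *Plat*, tissue plasminogen activator (0.238), with 29.5 CPM at day 4 and 27.9 and 25.8 CPM at day 6 with 4-OHT.

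*Tm4sf4* was nearest both to *Sprr1a* (0.197) and to *Il1rn* (0.428), *Fam114a1* to *Clu* (0.0803), and *Gda*, guanine deaminase, to *Msln* (0.342). *Acta1*, skeletal muscle actin, was nearest to *Ly6d* (0.253), with 33.3 and 32.3 CPM under EtOH and 401 and 312 CPM under 4-OHT at day 6. *Ccn1* had *Plk3* as its neighbour (0.0938) and *Ccn2* had *Nol4l* (0.0212), neither of which passed the day 6 test. With 6 libraries that share their labels, such likeness describes these libraries only.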

How the data were processed

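RNA sequencing counts from 6 libraries were used, grouped by the treatment and day in their labels. The authors deposited 1 file for each library with whole-number counts per gene, not normalized. Per the submitters' processing notes STAR and the mm39 build were used. The version, annotation release and strand setting are not given in the sources used here. Per the labels' protocols RNA was column-extracted, selected for poly-A and primed with random hexamers, and no molecular identifiers are named. Summary lines (19.3% to 26.7% of entries) stayed out of library sizes and tests. Symbols and positions came from GENCODE M39 (GRCm39), which matched 56323 of 56884 identifiers. Of the list genes, *Clul1*, *Ddx58* and *Lor* were not matched by symbol.

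Day 6 replicates differed by more than sampling noise (chi-square per degree of freedom 33.2 and 22.9), so no library was counted as a repeat deposit of another. This does not show that they came from separate cultures. Counts were tested with edgeR 4.0.16 in R 4.3.3 (TMM, filterByExpr with a minimum count of 10, glmQLFit with a robust spread, glmQLFTest) and Benjamini-Hochberg adjustment at 0.05. Standard errors were derived from the F statistic (log2 fold change over its root). Day 4 log2 fold changes used a prior count of 2. Libraries held 14345379 to 21461835 gene counts, so genes with few counts are the least precise.

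The alternatives were median-of-ratios scaling, other filters, DESeq2 1.42.0, limma-voom 3.58.1, a replicate block, all libraries in 4 groups, no day term, leaving out each library, a prior count of 0.5, scaling by totals and, chosen after seeing the data, no robust spread. The members and lists were chosen with earlier results of these data known. Named besides the members were, for each list, the up to 4 largest day 6 changes with an adjusted p under 0.05, and the genes of nearest pattern. Further genes named as context were picked after their values were seen. Reads per exon were not analysed here. One gene of the set and 1 further list gene are not reported here.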

Additional observations from a re-analysis of the deposited data

How the results depend on the processing

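The 6 members called at day 6 stayed 6 under every scaling, filter and test tried, and were 4 to 5 when a library was left out. The calls lost were *Clu* without any 1 library (log2 fold changes 0.92 to 1.10) and *Il1rn* without EtOH replicate 1. These fits used the remaining libraries of both days in 4 groups, with the spread from 1 replicate pair, so they differ from the main day 6 test. Over both days the count was 6 throughout except without the day term, where it was 3, since *Msln*, *Il1rn* and *Sprr1a* no longer passed (adjusted p 0.124, 0.0642 and 0.0584, edgeR). Leaving out a library left that count at 6. For the difference between days it was 0 under all alternatives. *Ccn1*, whose day 6 change was near 0, changed sign there with limma-voom (−0.0025) and with the replicate block (−0.0021), and ranged from −0.22 (without 4-OHT replicate 2) to 0.20 (without 4-OHT replicate 1) with a library left out, being −0.16 without EtOH replicate 1. Over both days it did so without either day 4 library (0.0016 and 0.0041), in a range that began at −0.37 without 4-OHT replicate 2 of day 6. Without either day 4 library, the day term takes up the remaining one. Such fits therefore rest on the day 6 libraries, where the change of *Ccn1* was 0.0020. The difference between days of *Clu* changed sign without EtOH replicate 1 (0.0085), in a range that began at −0.18 without EtOH replicate 2. The cause of the other sign changes was not tested.

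Counts over all genes depended more on the setting. At day 6, 351 genes passed, 693 without a filter and 145 to 451 with a library left out. Over both days 565 passed, 1066 without a filter, 856 with DESeq2, 316 without the day term and 340 to 791 with a library left out. For the difference between days the counts were 0, 27 without a filter, 6 with DESeq2 and 0 to 27 with a library left out. With replicate number as a block, 806 genes and the same number of members, 6, passed at day 6. The labels do not say that the numbers pair the samples, and the deviations of same-numbered libraries had a correlation of 0.277 across genes. Depth limits *Ccn2* and the day 4 ratios of *Ly6d* and *Msln* most.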
